A study of Mus musculus with 9 samples.

Results

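The comparison set mouse thyroid cells after blockade of the Notch ligands Jag1 and Jag2 (group aJ1aJ2, 3 pools) against thyroid cells after a control antibody directed at ragweed (group RW, 3 pools), and asked which genes changed alike over cell classes and which changed in 1 class. These are 6 of the 9 samples of the series. The cell classes are the authors' deposited labels, and 12 of 16 labels entered, namely those with at least 20 cells in at least 2 pools of each group. All mice were male C57BL/6, aged 10 to 12 weeks in the series' design text and 10 to 14 weeks in the treatment protocol. Each received 1 injection into the peritoneum, of anti-ragweed at 40 mg/kg or of anti-Jag1 and anti-Jag2 at 20 mg/kg each, and the labels give 7 days for both groups. Each sample is a pool of thyroids from 6 mice, digested together, so the spread between samples is a spread between pools and not between single mice. No gene was deleted: the antibodies bind the ligands at the cell surface, so RNA of Jag1 or Jag2 is no check of the labels. The hour of necropsy is not given in the sources used here.

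Notch receptors are cleaved when a ligand on a neighbouring cell binds them, and the freed part enters the nucleus and switches on targets such as Nrarp and the Hes and Hey genes. In blood vessels this contact signal takes part in artery identity, in sprouting and in the attachment of the mural cells, the pericytes and smooth muscle cells that wrap the vessel. The circadian clock is a second system that runs in nearly every cell: Bmal1 (Arntl in the files) and Clock switch on Per, Cry, Nr1d1, Nr1d2 and the PAR bZIP factors Dbp, Tef and Hlf, and several of these products repress Bmal1 in turn, so that the levels of both arms swing over the day in opposite phase.

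The 6 pools held 7567 cells and 51446383 unique molecular identifiers (UMIs), 583 to 1805 cells and 4697308 to 11880793 UMIs per pool. Of 7561 distinct cell barcodes, 6 occurred in more than 1 of these libraries and at most 2 were shared by any pair. By summed marker levels in most pools, EC1, EC2, EC3 and EC4 were led by endothelial genes, F by fibroblast genes, Th1 and Th3 by thyrocyte genes, M by macrophage genes, T1 by T and NK cell genes, S by Schwann cell genes, and both erythroid labels, Eryth1 and Eryth2, by haemoglobin genes. Exceptions were erythroid markers above endothelial ones in RW 2 (21932 against 12522) and aJ1aJ2 4 (11327 against 10910) of EC1 and in aJ1aJ2 4 of EC2 (14795 against 9486), thyrocyte above endothelial markers in RW 3 of EC3 (6456 against 6365), and skeletal muscle above thyrocyte markers in aJ1aJ2 1 of Th3 (79864 against 69207), all in CPM. EC3 also held lymphatic endothelial markers at 2292 to 6760 CPM, UMIs of a gene per TMM-adjusted total of a pool and label, in sum and mural markers at 1218 to 4876, and EC2 held mural markers at 768 to 2986. Th3 held C cell markers at 3089 to 87323 CPM beside thyrocyte markers at 68496 to 146270, so none of these 3 is a pure class by these lists. Thyrocyte RNA was found outside the thyrocyte labels too: the 10 thyrocyte markers summed to 730.03 to 1289 CPM over the 6 pools in EC1 and to 311 to 741 CPM in F. In S the Schwann cell markers summed to 15310 CPM in RW 1 against 37999 to 41730 in the other 3 pools tested. The 2 pools numbered apart in the titles, RW 3 and aJ1aJ2 1, form 1 of the title number ranges, and the other 4 pools form another. EC2 was tested without RW 3 and aJ1aJ2 1, EC3 and T1 without aJ1aJ2 1, and S without RW 2 and aJ1aJ2 1, since these pools held fewer than 20 cells of the label.

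Counts were summed per pool and label and tested with edgeR's quasi-likelihood test, and a gene was called at a Benjamini-Hochberg adjusted p under 0.05. EC1 had 51 genes higher and 83 lower in aJ1aJ2 (1.43% of 9369 genes tested, 0.544% higher and 0.886% lower), Th1 had 41 higher and 24 lower (0.612% of 10627, 0.386% and 0.226%), and EC2 had 27 higher and 21 lower (1.91% of 2508, 1.08% and 0.837%). EC4 had 16 higher and 12 lower (0.903% of 3101, 0.516% and 0.387%), F had 19 higher and 9 lower (0.579% of 4840, 0.393% and 0.186%), EC3 had 1 higher and 3 lower (0.0618% of 6476, 0.0154% and 0.0463%), and Eryth2 had 1 lower (0.358% of 279). No gene was called by edgeR in Eryth1, M, S, T1 or Th3, where before adjustment 7, 77, 238, 104 and 74 genes had p under 0.05. By DESeq2, 2 genes were called in S, 1 in Th3 and 0 in the other 3. The median log2 change over all genes tested lay between -0.02 and 0.02 in every label. The labels differ in cells and UMIs, so the counts do not rank how strongly the labels responded.

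**Figure D1:**
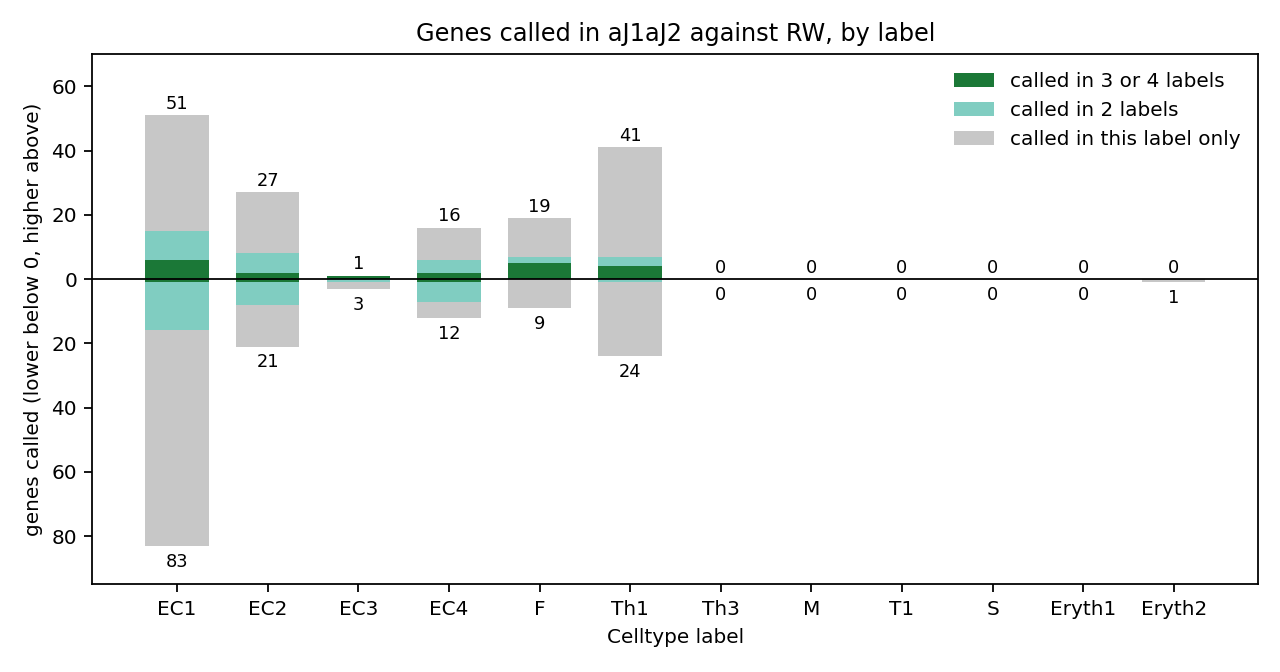
Genes called in aJ1aJ2 against RW in each label (x axis), higher above 0 and lower below 0 (y axis, number of genes), coloured by the number of labels in which the gene was called in the same direction. Grey stands for genes called in that label only, 103 of 134 in EC1 and 57 of 65 in Th1.

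Most calls were made in a single label. The 308 calls of a gene in a label came from 265 genes, 2.17% of the 12226 genes tested in any label. Of these genes 231 were called in 1 label, 27 in 2, 5 in 3 and 2 in 4. No gene was called higher in one label and lower in another, but with no filter on low counts Hba-a1 and Hba-a2 were each called higher in at least 3 labels and lower in at least 3. Of 6741 genes tested in at least 3 labels, 7 were called in the same direction in at least 3 (0.104%), 6 of them higher (0.089%) and 1 lower (0.0148%). The 6 that rose are the clock genes Nr1d1, Nr1d2, Tef, Hlf and Per3 and the glycosyltransferase gene Galnt15, and the 1 that fell is the chaperone gene Hspa8. The labels of a pool share mice, library and free RNA, so a change found in 3 labels is not 3 independent findings. In a fit of the 6 pools alone with the title number range as a block, which EC2 could not enter, 10 genes reached 3 labels. Of the 7 these held 5, without Galnt15 and Hspa8. Without RW 1 or without aJ1aJ2 3, 0 genes reached 3 labels. The number was 2 without RW 2 (Tef of the 7, and Rgs5), 1 without aJ1aJ2 4 (Nr1d2), 24 without RW 3 and 27 without aJ1aJ2 1, with all 7 kept in the last 2 cases.

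Nr1d1 (ENSMUSG00000020889) encodes a nuclear receptor that represses Bmal1, and it was called in 4 labels. In EC1 its level was 31.3, 22.3 and 94.0 CPM in RW 1, 2 and 3 and 126, 166 and 141 CPM in aJ1aJ2 1, 3 and 4, a log2 change of 1.48 ± 0.30 (SE, adjusted p = 0.0114). In EC2 it was 23.6 and 31.1 CPM in RW 1 and 2 and 188 and 209.6 CPM in aJ1aJ2 3 and 4 (log2 2.88 ± 0.39, adjusted p = 0.00176). The groups did not overlap in either label, and RW 3 was the highest control in EC1. In EC4 the levels were 61.8, 14.8 and 94.1 CPM against 285, 288 and 215 (log2 2.02 ± 0.38, adjusted p = 0.00763), and in F 23.1, 30.2 and 138 CPM against 152, 180.4 and 209 (log2 1.68 ± 0.37, adjusted p = 0.0468). RW 3 was again the highest control in both. The log2 change of Nr1d1 was above 0 in all 8 labels that tested it, and in Th1, where it was not called, it was 1.25 (adjusted p = 0.074). Its relative Nr1d2 (ENSMUSG00000021775), a repressor of the same sites, was called in EC1 (log2 1.33 ± 0.23, adjusted p = 0.00361), F (log2 1.53 ± 0.27, adjusted p = 0.0109) and Th1 (log2 1.36 ± 0.19, adjusted p = 0.00647).

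The PAR bZIP factors are transcription factors that bind D-boxes and carry the rhythm to output genes. Tef (ENSMUSG00000022389) was called in EC1, EC4 and Th1. Its EC1 levels were 14.0, 9.24 and 44.1 CPM in RW 1, 2 and 3 and 53.8, 90.7 and 98.3 CPM in aJ1aJ2 1, 3 and 4 (log2 1.77 ± 0.34, adjusted p = 0.00764). Its Th1 levels were 9.10, 11.5 and 23.6 CPM against 45.2, 70.3 and 61.9 (log2 1.94 ± 0.26, adjusted p = 0.00647). The 2 groups were apart in both labels, and in EC4 the change was 2.63 ± 0.56 (adjusted p = 0.0175) on 7 UMIs in RW and 56 in aJ1aJ2. Hlf (ENSMUSG00000003949) was called in EC1 (log2 1.91 ± 0.30, adjusted p = 0.00147), F (log2 1.504 ± 0.32, adjusted p = 0.0376) and, with a smaller fitted change, Th1 (log2 0.84 ± 0.17, adjusted p = 0.0437). Dbp (ENSMUSG00000059824) was called in 2 labels. In EC2 it had 2 UMIs in the RW pools and 168 in the aJ1aJ2 pools, a ratio of 33.1 with a 95% counting interval of 9.02 to 276, and in EC4 the levels were 44.1, 0 and 65.9 CPM against 261, 302 and 335 (log2 2.86 ± 0.41, adjusted p = 0.000514). In EC1 Dbp was 31.3, 13.1 and 185 CPM in RW 1, 2 and 3 against 254, 268 and 303 CPM, and the adjusted p was 0.0525. RW 3 thus lay nearer to the aJ1aJ2 pools than to RW 1 and RW 2 for Dbp in EC1.

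Per3 (ENSMUSG00000028957), a period gene, was called in EC1, F and Th1. In F its level was 11.5, 15.1 and 19.0 CPM in RW 1, 2 and 3 and 76.0, 60.6 and 71.8 CPM in aJ1aJ2 1, 3 and 4, a log2 change of 2.17 ± 0.35 (adjusted p = 0.00639). In Th1 it was 4.66, 8.77 and 14.4 CPM against 21.0, 43.7 and 44.3 (log2 1.95 ± 0.33, adjusted p = 0.0133). The groups did not overlap in F or Th1, nor in EC1, where the change was 1.498 ± 0.37 (adjusted p = 0.044). Of the other clock genes of this arm, the repressor Cry2 was called in EC1 (log2 1.99 ± 0.46, adjusted p = 0.0345) and Th1 (log2 1.19 ± 0.18, adjusted p = 0.00962), the period gene Per2 in EC1 (log2 1.89 ± 0.41, adjusted p = 0.0209) and the repressor Bhlhe41 in EC1 (log2 1.78 ± 0.39, adjusted p = 0.0223). Per1 and Bhlhe40, which also respond quickly to stimuli, were called in no label.

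The promoters of Per3 and Tef are shown because they hold the letters of the 2 best known clock motifs. The windows run from 250 bases before to 50 after the annotated start (RefSeq, GRCm38.p6). Of the 7 genes called in at least 3 labels and Dbp, 7 of 8 matched the RefSeq table, with 8 windows. The E-box was searched as CACGTG, which reads the same on both strands, and the D-box as TTATGTAA or, on the other strand, TTACATAA. Capitals mark the matches.
Per3, chr4:151044616-151044915, minus strand: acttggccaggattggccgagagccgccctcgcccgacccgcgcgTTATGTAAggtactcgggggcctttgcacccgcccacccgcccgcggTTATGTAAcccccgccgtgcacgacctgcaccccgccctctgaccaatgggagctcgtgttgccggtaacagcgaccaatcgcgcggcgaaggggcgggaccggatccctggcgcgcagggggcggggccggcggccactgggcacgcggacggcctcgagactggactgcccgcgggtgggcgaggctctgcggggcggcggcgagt
Tef, chr15:81802423-81802722, plus strand: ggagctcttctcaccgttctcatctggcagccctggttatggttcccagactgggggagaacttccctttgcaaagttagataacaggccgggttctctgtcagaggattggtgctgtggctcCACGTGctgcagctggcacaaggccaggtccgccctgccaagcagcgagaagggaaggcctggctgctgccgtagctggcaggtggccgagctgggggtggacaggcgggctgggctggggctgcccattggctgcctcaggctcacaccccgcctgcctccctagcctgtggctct
Tef, chr15:81811164-81811463, plus strand: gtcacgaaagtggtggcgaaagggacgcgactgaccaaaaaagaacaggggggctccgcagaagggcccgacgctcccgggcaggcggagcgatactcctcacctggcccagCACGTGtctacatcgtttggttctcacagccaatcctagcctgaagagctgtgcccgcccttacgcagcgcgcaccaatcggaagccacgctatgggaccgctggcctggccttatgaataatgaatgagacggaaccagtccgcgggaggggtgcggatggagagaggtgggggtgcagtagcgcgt
The Per3 window held 2 D-boxes, and each of the 2 Tef windows held 1 E-box. Among 32851 windows of this length in the table, 7.15% held this E-box and 0.938% this D-box. The letters of neither motif were in the windows of Nr1d1, Nr1d2, Hlf, Dbp and Galnt15. A match describes letters and is no evidence of binding.

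Over the whole clock arm, 11 of 12 listed genes were tested and 9 rose in at least 1 label while none fell. Of all genes tested, 2.17% were called in any label in either direction, and 0.386% (Th1) to 1.08% (EC2) were called higher in EC1, F, Th1, EC4 and EC2. In EC1 8 of 11 members tested rose with a median log2 change of 1.75, in F 4 of 10 with 1.52, in Th1 5 of 11 with 1.19, in EC4 3 of 6 with 1.58 and in EC2 2 of 3 with 2.88. In EC3 0 of 10 were called by edgeR, although 6 had an unadjusted p under 0.05, beside 488 of all 6476 genes tested there, and the median was 1.06. The opposite arm had medians below 0 (EC1 -0.76, F -1.14, Th1 -0.89), and none of its 5 genes was called by edgeR in any label. Its member Arntl was 27.1, 35.1 and 8.39 CPM in RW 1, 2 and 3 of Th1 and 5.92, 5.12 and 4.67 CPM in aJ1aJ2 1, 3 and 4, with an adjusted p of 0.0531. RW 3 was again the control nearest to the aJ1aJ2 pools.

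**Figure D2:**
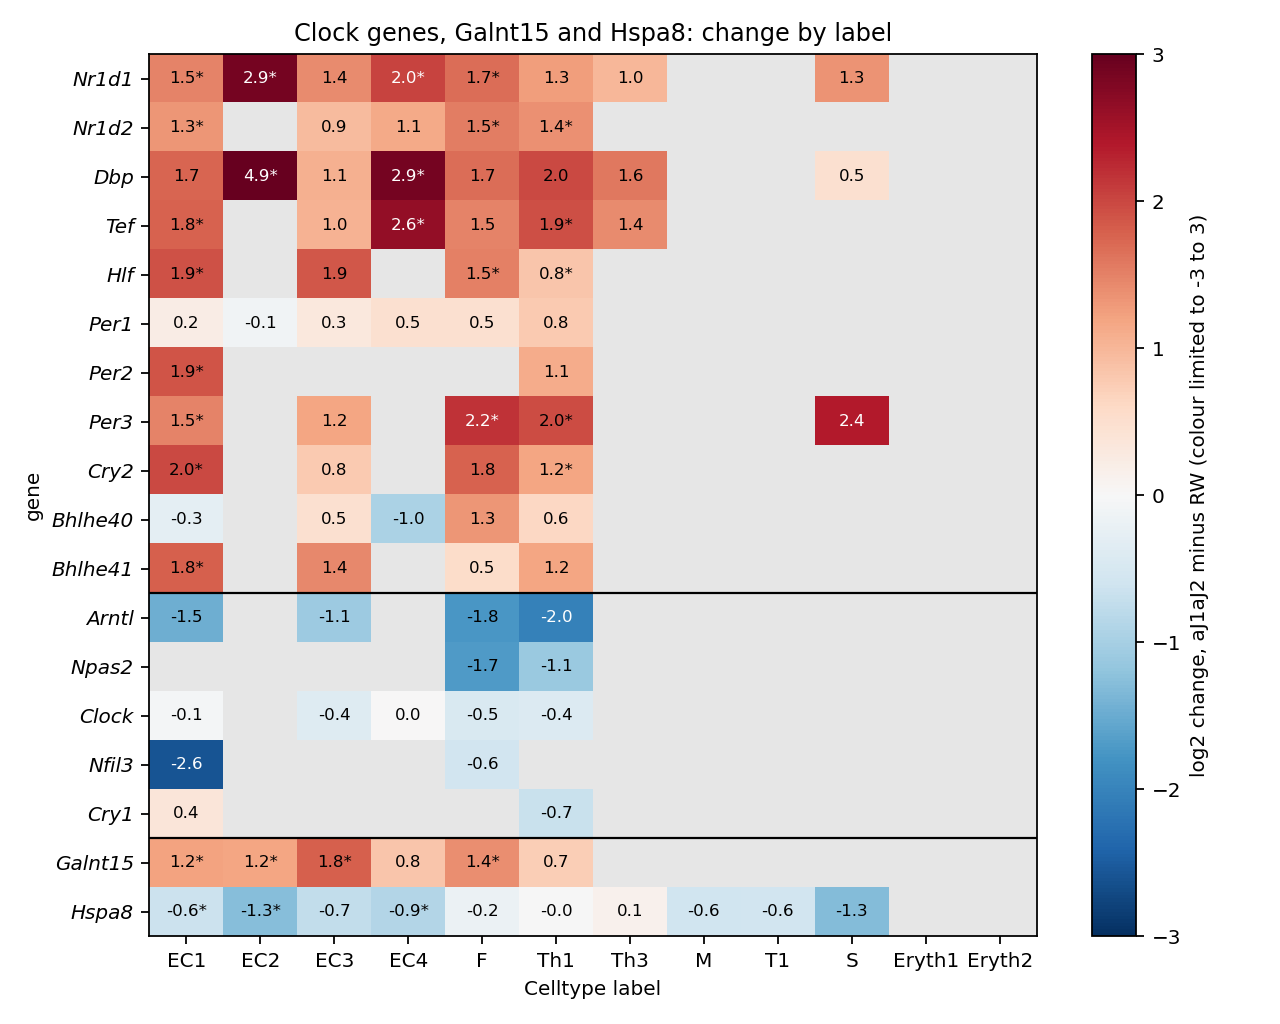
Log2 change (aJ1aJ2 minus RW, colour and number) of clock genes, Galnt15 and Hspa8 (rows) in each label (columns). Asterisks mark calls, grey marks labels where the gene was not tested, and lines part the Nr1d1 to Bhlhe41 arm, the Arntl arm and the other 2 genes. Nr1d1 is above 0 in all 8 labels tested and Arntl below 0 in all 4.

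The control pools differed among themselves in several of these genes. RW 3 was above both RW 1 and RW 2 for Dbp, Tef and Nr1d1 in 5 of 5 labels tested with 6 pools, for Nr1d2 in 4 of 4, and for Per3 and Bhlhe41 in 3 of 3. It was below both for Arntl in 3 of 3 and for Npas2 and Nfil3 in 2 of 2. Other genes were not uniform: RW 3 was above both for Hlf in 2 of 3 labels, Per2 in 1 of 2 and Cry2 in 1 of 3, and below both for Per1 in 3 of 4. Within the title range of RW 3 and aJ1aJ2 1, aJ1aJ2 was above RW for Dbp and Tef in 5 of 5 labels, for Nr1d1 in 4 of 5, Nr1d2 in 3 of 4 and Bhlhe41 in 2 of 3, and also for Arntl, whose change over all pools was below 0, in 2 of 3. Within the other range it was above for Dbp and Nr1d1 in 5 of 5, for Tef in 4 and for Arntl in 0 of 3. The part of the number range in these changes was not tested beyond these within-range values and the block below. Of the 16 calls of Nr1d1, Nr1d2, Tef, Per3 and Hlf, 12 were lost without aJ1aJ2 3 (adjusted p up to 0.327), 8 each without RW 1 (to 0.23), RW 2 (to 0.299) and aJ1aJ2 4 (to 0.196), and 1 without aJ1aJ2 1 (Nr1d1 in F, 0.054). None of the 16 was lost without RW 3. DESeq2 lost 5 of the 11 for which it gave an adjusted p (Nr1d1 in EC1 and F, Tef in EC1, Hlf in F and Th1, adjusted p to 0.115), and a fit of the 6 pools alone lost 5 of 15 (Nr1d1 and Hlf in F, Hlf and Per3 in Th1, Per3 in EC1, to 0.126). Of the 6 calls of Dbp, Cry2, Per2 and Bhlhe41, 4 were lost without aJ1aJ2 3 (to 0.352) and 3 each without RW 1 (to 0.117), RW 2 (to 0.139) and aJ1aJ2 4 (to 0.316), while both Dbp calls were kept in each case. The 6 pools alone lost that of Bhlhe41 (0.0506). With the title number range as a block those of Hlf in Th1 (0.0549) and Bhlhe41 (0.0517) were lost.

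**Figure D3:**
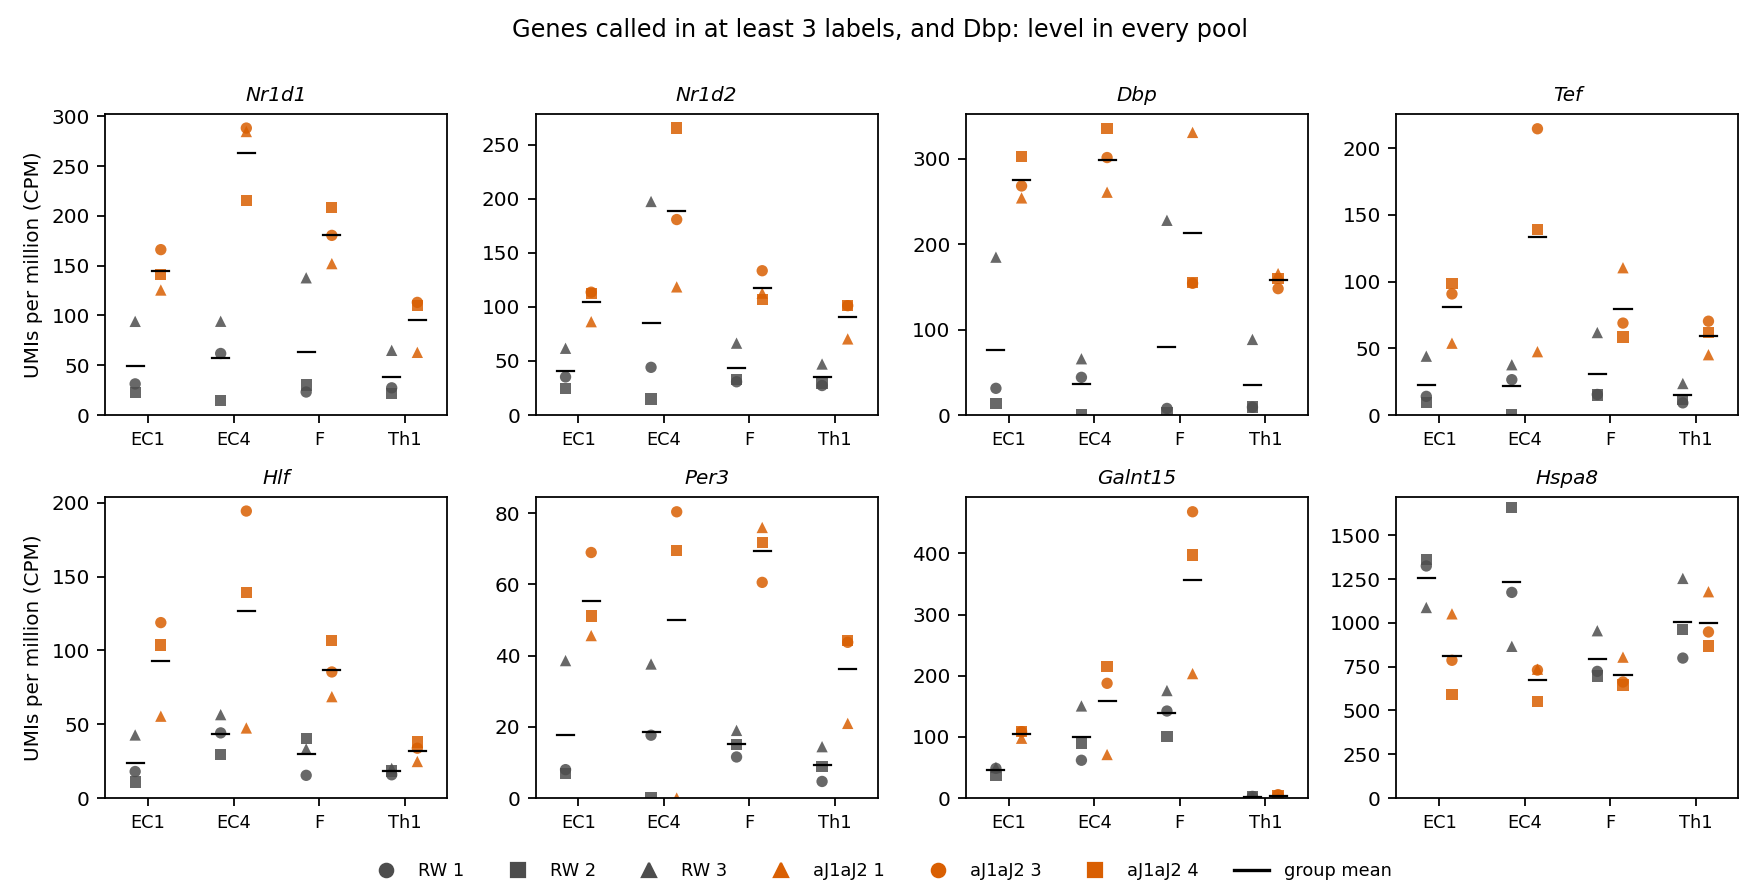
Level in CPM (y axis, linear from 0) of the 7 genes called in at least 3 labels and of Dbp in EC1, EC4, F and Th1 (x axis). Points are single pools, grey for RW and orange for aJ1aJ2, triangles mark RW 3 and aJ1aJ2 1, and horizontal lines are group means. The RW 3 triangle lies above the other 2 controls for Dbp, Tef and Nr1d1 in each of these labels.

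Galnt15 (ENSMUSG00000021903), which encodes an enzyme that starts O-linked glycosylation of proteins, rose in EC1, EC2, EC3 and F. In EC1 it was 48.5, 37.7 and 49.97 CPM in RW 1, 2 and 3 and 97.8, 109 and 108 CPM in aJ1aJ2 1, 3 and 4 (log2 1.20 ± 0.16, adjusted p = 0.000352). In F, where its level was higher, it was 142, 100.5 and 176 CPM against 204, 468 and 397 (log2 1.40 ± 0.27, adjusted p = 0.0202). The groups did not overlap in either label. RW 3 was the highest control in both, close to RW 1 in EC1. In EC3 the levels were 33.9, 40.4 and 29.4 CPM in RW 1, 2 and 3 and 146 and 91.8 CPM in aJ1aJ2 3 and 4 (log2 1.79 ± 0.29, adjusted p = 0.0225), and in EC2 the change was 1.19 ± 0.28 (adjusted p = 0.0402). Galnt15 did not pass the test in EC4 (log2 0.84, adjusted p = 0.347) or Th1 (log2 0.75, adjusted p = 0.555). Between RW 3 and aJ1aJ2 1 alone, aJ1aJ2 was above RW for Galnt15 in 2 of 4 labels. The EC1 call was kept whichever pool was left out. The F call was lost without RW 1, RW 2, aJ1aJ2 3 or aJ1aJ2 4, the EC2 call without RW 1, RW 2 or aJ1aJ2 4 and the EC3 call without RW 1 or aJ1aJ2 3, with adjusted p of 0.0813 to 0.967. DESeq2 lost the EC2 call (0.239), the 6 pools alone the EC2 and F calls (to 0.0734) and the block of title number range the EC3 call (0.106).

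Hspa8 (ENSMUSG00000015656), a chaperone that folds new proteins and uncoats vesicles, fell in 3 endothelial labels. In EC2 it was 1861 and 2034 CPM in RW 1 and 2 and 904 and 709 CPM in aJ1aJ2 3 and 4, a log2 change of -1.27 ± 0.21 (adjusted p = 0.0046). In EC1 it was 1325, 1363 and 1088 CPM in RW 1, 2 and 3 and 1051, 786 and 589 CPM in aJ1aJ2 1, 3 and 4 (log2 -0.65 ± 0.15, adjusted p = 0.0362), and in EC4 the change was -0.88 ± 0.22 (adjusted p = 0.0467). The groups did not overlap in these 3 labels, although RW 3 and aJ1aJ2 1 lay close together in EC1. In Th1 the levels were 799 to 1254 CPM in RW and 868 to 1178 CPM in aJ1aJ2 (log2 -0.01, adjusted p = 0.997), and in F the change was -0.17 (adjusted p = 0.893). Over all labels that tested Hspa8, its change was below 0 in 9 of 10, with an unadjusted p under 0.05 in 6. The test of the EC1, EC2 or EC4 change against the other labels did not call Hspa8. The EC2 call was kept whichever pool was left out, and the EC1 and EC4 calls were lost without RW 1, RW 2, aJ1aJ2 3 or aJ1aJ2 4 (adjusted p 0.126 to 0.318) and with the 6 pools alone, without or with the block of title number range (0.0602 to 0.0973).

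Hspa8 belongs to a list of immediate early and heat shock genes, of which 25 were tested in at least 1 label. In EC1 6 of 25 fell and none rose, with a list median of -0.52, in EC2 3 of 16 fell, in EC4 1 of 17 fell and in F 1 of 22 rose. Of all genes tested, 0.886% were called lower in EC1, 0.837% in EC2 and 0.387% in EC4, and 0.393% were called higher in F. The inducible Hsp70 genes Hspa1a and Hspa1b fell in EC1. Hspa1a was 64.5, 31.6 and 56.3 CPM in RW 1, 2 and 3 and 6.52, 4.47 and 13.5 CPM in aJ1aJ2 1, 3 and 4 (log2 -2.59 ± 0.33, adjusted p = 0.000251). Hspa1b is a near-identical copy, so the split of reads between the 2 genes is uncertain, and its change was -2.25 ± 0.30 (adjusted p = 0.000356). The co-chaperone gene Dnajb1 (log2 -0.91), the early response factors Fos (log2 -1.56) and Nr4a1 (log2 -1.74) also fell in EC1, with groups that overlapped for these 3. In EC2 Klf2, a flow-responsive endothelial factor, was 1749 and 2106 CPM in RW 1 and 2 and 834 and 862 CPM in aJ1aJ2 3 and 4 (log2 -1.18 ± 0.21, adjusted p = 0.00925), while in EC1 it was 993 to 1065 CPM in RW and 732 to 1456 CPM in aJ1aJ2. In F Junb, a subunit of the AP-1 factor, moved the other way, from 88.5, 60.3 and 85.5 CPM to 129.9, 199.7 and 282 CPM (log2 1.44 ± 0.27, adjusted p = 0.0181). Of 8 calls of the list other than Hspa8, 4 each were lost without RW 2, aJ1aJ2 3 or aJ1aJ2 4, 3 without RW 1 and 2 without RW 3 (adjusted p 0.0543 to 0.356), and those of Hspa1a, Hspa1b and Klf2 were kept each time. The 6 pools alone lost those of Dnajb1, Fos and Nr4a1 (to 0.111), and the block that of Dnajb1 (0.0732).

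For each pool a value was formed as the mean log2 CPM, with equal weight, over the 8 labels with at least 20 cells in all 6 pools. These include Eryth1 and Eryth2 and leave out EC2, EC3, S and T1, so this is not a value of the whole tissue. None of 5080 genes was called by limma, with 350 (6.89%) at an unadjusted p under 0.05 and a lowest adjusted p of 0.114. The leading genes were Cd74 (log2 -0.78 ± 0.13), the chaperone of MHC class II molecules, and the clock genes Tef (log2 1.08 ± 0.19), Per3 (log2 0.90 ± 0.16) and Dbp (log2 1.74 ± 0.31), each with an adjusted p of 0.114. Next came Cirbp, an RNA-binding protein induced by cold, at 0.72 ± 0.14 (adjusted p = 0.14). Dbp was 3.94, 3.49 and 5.28 log2 CPM in RW 1, 2 and 3 and 5.95, 5.94 and 6.03 in aJ1aJ2 1, 3 and 4. The 3 aJ1aJ2 pools lay within 0.1 of each other while the controls spread widely. Without RW 3, 9 genes were called, led by Dbp (log2 2.27), with Tef, Nr1d1, Per3, Bhlhe41 and Nr1d2 among them. The number was 25 without aJ1aJ2 1 and 0 by limma without RW 1, RW 2 or aJ1aJ2 4. Without aJ1aJ2 3 it was 4, namely Mylpf, Acta1, H2-Aa and Cd74, with no clock gene among them. With the title number range as a block 13 were called, among them Dbp and Tef (adjusted p 0.00961), Cirbp (0.0104), Cd74 and Per3 (0.0146).

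Of the blocked ligands and the receptors, none passed the test at the RNA level: 0 of 8 Notch receptor and ligand genes tested were called by edgeR in any label, beside 2.17% of all genes. Jag1 was highest in EC3, at 385, 289 and 390.0 CPM in RW 1, 2 and 3 and 221 and 226 CPM in aJ1aJ2 3 and 4 (log2 -0.66 ± 0.26, adjusted p = 0.568). In Th1 Jag1 was 24.2, 25.0 and 17.6 CPM in RW and 31.2, 27.2 and 42.6 CPM in aJ1aJ2 (log2 0.60 ± 0.19, adjusted p = 0.193). The pools did not overlap in either label, and the directions were opposite. Jag2 in EC1 was 97.7 to 149 CPM in RW and 99.4 to 114 CPM in aJ1aJ2 (adjusted p = 0.633). Notch1 in EC1 was 248 to 300.2 CPM in RW and 278 to 298 CPM in aJ1aJ2 (log2 0.07 ± 0.12, adjusted p = 0.872). Notch2 had adjusted p-values of 0.646 or more in all 7 labels that tested it. The 26 genes of Notch processing and its cofactors gave 0 calls as well.

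Of 14 Notch target genes tested, 2 fell (14.3%), both in EC1. Of all genes tested, 2.17% were called in any label in either direction, and 0.886% were called lower in EC1. Nrarp, a feedback inhibitor that Notch switches on directly, was 132, 124 and 129 CPM in RW 1, 2 and 3 and 104, 35.8 and 63.3 CPM in aJ1aJ2 1, 3 and 4, a log2 change of -1.04 ± 0.22 (adjusted p = 0.0186). Every aJ1aJ2 pool was below every control, with aJ1aJ2 1 nearest to them. In EC2, EC3 and EC4 Nrarp had log2 changes of -0.49, -0.68 and -0.78 that did not pass the test (adjusted p 0.503, 0.746 and 0.538). Cdkn1a, the cell cycle inhibitor p21, was 185, 259 and 66.3 CPM in RW and 58.7, 30.0 and 39.7 CPM in aJ1aJ2 of EC1 (log2 -2.06 ± 0.34, adjusted p = 0.00206). Here RW 3 lay closer to the aJ1aJ2 pools than to the other controls. The median of the 9 targets tested in EC1 was 0.06, beside 0.01 for all genes. It was -0.32 in EC2, -0.48 in EC3, -0.36 in EC4 and -0.39 in F, but 0.04 in Th1, where 9 were tested. With only 2 targets tested in each, the median was 1.42 in S, 0.27 in T1 and 0.30 in Th3. The 1 target tested in M had -0.27. No target was called by edgeR in any label but EC1. The Nrarp call was lost without RW 1 (adjusted p 0.0504), RW 2 (0.0579), aJ1aJ2 3 (0.184) or aJ1aJ2 4 (0.15) and with the 6 pools alone (0.0585), and the Cdkn1a call was kept each time.

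Of the 231 genes called in 1 label, 23 were tested in that label only. For 7 of the others the change also differed from the common change of the other labels, and for 201 it did not pass that test, so most calls made in 1 label are not shown to be particular to it. The difference was tested in edgeR on the 6 pools with pool and label as terms, and a pair of gene and label was counted when it passed both tests. This gave 9 pairs of 43859 tested (0.0205%): Nts, Pik3ip1, Aspn and Jund in EC2, Rgs5 and Mnd1 in EC3, Chchd10 and Col1a1 in F, and Tax1bp1 in Eryth2. Of the 9 pairs, 1 was kept when RW 2 was left out, 2 each for RW 1, aJ1aJ2 3 or aJ1aJ2 4, 4 for RW 3 and 6 for aJ1aJ2 1, and only Nts was kept each time. The 2 beyond the 7, Pik3ip1 and Rgs5, were also called in EC1. The difference test alone called 196 genes in S and 23 in Th3, the labels with the uneven Schwann cell and muscle marker levels given above, whose part in this was not tested.

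In EC2 the largest change was in Nts, which encodes the peptide neurotensin, a marker gene of some endothelial cells of lymph vessels. It was 118 and 290.5 CPM in RW 1 and 2 and 0 and 2.59 CPM in aJ1aJ2 3 and 4, that is 48 UMIs against 1, a ratio of 122 (95% counting interval 20.8 to 4911). Against the other labels the difference was -8.03 log2 (adjusted p = 2.19e-06), and in EC3, the other label that tested Nts, the levels were 22.2 to 77.5 CPM in RW and 68.8 to 141 CPM in aJ1aJ2. Lymphatic endothelial markers in EC2 summed to 29.5 and 51.9 CPM in RW and 553 and 54.3 CPM in aJ1aJ2, and their part in the Nts change was not tested. Pik3ip1, an inhibitor of PI3 kinase, went from 11.8 and 0 CPM to 125 and 137 CPM, 2 UMIs against 89 (ratio 17.5, interval 4.71 to 147), with a difference of 3.24 ± 0.77 (adjusted p = 0.0425). Pik3ip1 rose in EC1 too, by 1.01 ± 0.24 on the log2 scale (adjusted p = 0.0381), with overlapping groups. Aspn, a matrix proteoglycan, rose by 2.66 ± 0.63 (adjusted p = 0.0402) and Jund, an AP-1 subunit, fell by 1.32 ± 0.22 on the log2 scale (adjusted p = 0.00502). Aspn is abundant in F (485 to 685 CPM), and fibroblast markers in EC2 summed to 118 and 20.8 CPM in RW and 163 and 168 CPM in aJ1aJ2; their part in the Aspn change was not tested. EC2 held 29 to 145 cells per pool and 2 pools a group. The Aspn and Jund calls were lost without RW 1 (adjusted p 0.148 and 0.0543), and those of Nts and Pik3ip1 within EC2 were kept whichever pool was left out. The difference of Pik3ip1 from the other labels was kept only without aJ1aJ2 1 among these, and that of Nts each time.

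EC2 and EC1 shared a rise of Lpl, the lipase that frees fatty acids from blood lipoproteins at the vessel wall. In EC2 it was 774 and 1099.7 CPM in RW 1 and 2 and 2527 and 1977 CPM in aJ1aJ2 3 and 4 (log2 1.28 ± 0.26, adjusted p = 0.0188). In EC1, at a far lower level, it was 9.31, 10.0 and 17.7 CPM in RW and 26.1, 40.2 and 39.7 CPM in aJ1aJ2 (log2 1.5035 ± 0.25, adjusted p = 0.00234). The groups were apart in both, whereas in F, where Lpl is abundant, they overlapped (log2 -0.33, adjusted p = 0.708). Of the 11 genes of endothelial fatty acid uptake, Lpl was the one called (9.09%, beside 2.17% of all genes called in any label). Txnip, which binds thioredoxin and limits glucose uptake, rose in the same 2 labels (EC2 log2 1.02 ± 0.24, adjusted p = 0.0363, and EC1 log2 0.54 ± 0.13, adjusted p = 0.043). It is on the glucocorticoid response list, of which 5 of 17 genes rose and 2 fell in at least 1 label (41.2% called, beside 2.17% of all genes). Zbtb16, a transcription factor on that list, had 1 UMI in RW and 74 in aJ1aJ2 of EC2 (ratio 29.2, interval 5.07 to 1167). Without RW 1 the calls of Lpl, Txnip and Zbtb16 in EC2 were lost, and without aJ1aJ2 4 that of Txnip (adjusted p 0.0523 to 0.287). The 6 pools alone lost both Txnip calls (0.0663 and 0.0996). Of the 6 cases with 1 pool left out, the Txnip call in EC1 was kept without aJ1aJ2 1 and lost in the other 5 (adjusted p 0.0665 to 0.334), and the Lpl call in EC1 was kept each time.

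In EC3 4 genes were called, Galnt15 higher and Rgs5, Mnd1 and Cox4i2 lower, of which Cox4i2 is named after its values were seen. Rgs5, a regulator of G protein signalling that marks pericytes, was 2367, 1637 and 1792 CPM in RW 1, 2 and 3 and 219 and 168 CPM in aJ1aJ2 3 and 4, a log2 change of -3.30 ± 0.33 (adjusted p = 0.000262). The fall was larger than the common change of the other labels by -2.82 log2 (adjusted p = 0.00693). In EC1 Rgs5 fell as well, from 68.5, 54.7 and 176 CPM to 26.1, 37.7 and 40.4 CPM (log2 -1.504 ± 0.36, adjusted p = 0.0389), and in EC2, where 3 of the 4 pools lay at 1998 to 2139 CPM, it did not pass the test (adjusted p = 0.691). Cox4i2, a respiratory chain subunit typical of pericytes, had 104 UMIs in RW and 1 in aJ1aJ2 of EC3 (ratio 51.1, interval 8.97 to 2036; log2 -5.35 ± 0.83, adjusted p = 0.0225). Mnd1, known from meiotic recombination, had 96 UMIs in RW and 2 in aJ1aJ2 (ratio 23.6, interval 6.35 to 197). The 10 mural markers summed to 4876, 3132 and 4255 CPM in RW and 1218 and 1640 CPM in aJ1aJ2 of EC3, 2 of 8 tested were called lower, and none was at 0. Among them Notch3, the Notch receptor of mural cells, was 168, 109 and 192 CPM against 60.8 and 42.1 CPM (adjusted p = 0.269). Fewer mural cells in the label and less RNA of these genes per cell cannot be told apart in these sums. The Rgs5 call was lost without aJ1aJ2 3 (adjusted p 0.066), which leaves 1 aJ1aJ2 pool, and the Mnd1 call without aJ1aJ2 3 (0.967) or RW 1 (0.205) and by DESeq2 (0.0961). Of the 4 genes, 0 were called by edgeR without aJ1aJ2 3, and without RW 1 only Rgs5 was, so the Cox4i2 call was lost in both cases.

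MHC class II genes, which present antigen to helper T cells, fell in EC1. Of 4 members tested in EC1 all 4 fell, beside 0.886% of all genes tested there, and the median log2 change of the 4 was -2.41. H2-Ab1, which encodes a class II beta chain, was 130.3, 116 and 153 CPM in RW 1, 2 and 3 and 16.3, 26.2 and 37.7 CPM in aJ1aJ2 1, 3 and 4 (log2 -2.22 ± 0.23, adjusted p = 3.31e-05). H2-Aa (log2 -2.58 ± 0.30, adjusted p = 8.8e-05), H2-Eb1 (log2 -2.23 ± 0.30, adjusted p = 0.000376) and Cd74 (log2 -2.69 ± 0.38, adjusted p = 0.000632) followed. Cd74 also fell in EC2, from 319 and 104 CPM to 17.4 and 12.9 CPM (log2 -3.86 ± 0.60, adjusted p = 0.0046). The controls did not overlap with the aJ1aJ2 pools for these genes in either label, and in EC1 RW 3 was the highest pool for all 4. In M, the label where class II genes are most abundant, H2-Ab1 was 12213 to 15949 CPM in RW and 10472 to 11673 CPM in aJ1aJ2, the list median was -0.42 and 0 of 7 were called by edgeR. In EC3 the median of 4 was -2.51 with 0 called and 2 at an unadjusted p under 0.05, beside 488 of all 6476 genes tested there. In Th1 the median of 6 was 0.05. The 4 calls in EC1 were kept whichever pool was left out, and that of Cd74 in EC2 had no value without RW 1 and was kept in the other cases. DESeq2 lost those of H2-Eb1 and Cd74 in EC1 (adjusted p 0.0992 and 0.0958).

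Macrophage genes moved with the class II genes in EC1. The complement genes C1qa (log2 -2.09 ± 0.33, adjusted p = 0.0014), C1qb (log2 -1.85 ± 0.32, adjusted p = 0.00361) and C1qc (log2 -2.67 ± 0.40, adjusted p = 0.00101), which macrophages make, fell in EC1. C1qc was 26.6, 19.2 and 50.9 CPM in RW 1, 2 and 3 and 4.89, 5.11 and 5.39 CPM in aJ1aJ2 1, 3 and 4. The 11 macrophage markers summed to 203, 148 and 364 CPM in RW and 96.2, 129 and 54.5 CPM in aJ1aJ2 of EC1, 6 of 7 tested were called lower, and none was at 0. In EC2 they summed to 437 and 20.8 CPM in RW and 38.2 and 10.4 CPM in aJ1aJ2, with Csf1r and Cd14 at 0, while Cd74 there was 319 and 104 CPM in the same 2 RW pools. Dendritic and B cell markers, of cells that carry class II, summed to 42.6, 3.85 and 7.27 CPM in RW and 1.63, 7.03 and 7.41 CPM in aJ1aJ2 of EC1, with Flt3 and Xcr1 at 0. In EC2 they summed to 225 CPM in RW 1 and 0 in the other 3 pools, with Flt3, Xcr1, Itgax and Jchain at 0 in all 4. The part of either marker list in the class II result was not tested. Of the 3 complement calls, that of C1qb was lost without aJ1aJ2 4 (adjusted p 0.0655).

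Other genes called in EC1 alone included Nr4a3, an early response nuclear receptor, which was 31.3, 34.6 and 9.54 CPM in RW 1, 2 and 3 and 9.78, 1.92 and 2.69 CPM in aJ1aJ2 1, 3 and 4 (log2 -2.68 ± 0.55, adjusted p = 0.0129). RW 3 and aJ1aJ2 1 had about the same level. Abca8a, a lipid transporter gene, had 1 UMI in RW and 32 in aJ1aJ2 (ratio 43.7, interval 7.3 to 1779). The muscle creatine kinase gene Ckm rose (log2 2.67 ± 0.63, adjusted p = 0.0357) with overlapping groups. Skeletal muscle markers summed to 37.9, 10.0 and 25.0 CPM in RW and 34.2, 64.5 and 131 CPM in aJ1aJ2 of EC1, with none at 0, and fibroblast markers, whose label F expresses Abca8a at 808 to 1311 CPM, summed to 36.6, 43.1 and 159 CPM and 57.1, 50.5 and 422 CPM. Their part in the 2 rises was not tested. Without RW 2 or aJ1aJ2 3 all 3 calls were lost, without RW 1 and aJ1aJ2 4 those of Ckm and Nr4a3, and without RW 3 that of Ckm (adjusted p 0.051 to 0.322). Without aJ1aJ2 4, Abca8a had no value.

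EC4 had 15 of 28 calls in this label alone, none of which differed from the other labels by the test of the difference. Spred2, an inhibitor of the MAP kinase cascade, was 150.03, 163 and 216 CPM in RW 1, 2 and 3 and 47.4, 40.2 and 50.6 CPM in aJ1aJ2 1, 3 and 4 (log2 -1.93 ± 0.37, adjusted p = 0.00968). Sh3bp5, a mitochondrial and endosomal adaptor, was 300.1, 296 and 235 CPM against 94.9, 127 and 94.9 (log2 -1.34 ± 0.29, adjusted p = 0.0175). Both groups kept apart, on 16 to 79 UMIs a group. Ccn2, a secreted matrix protein, rose from 4 to 54 UMIs (log2 3.38 ± 0.72, adjusted p = 0.0175), and the antiviral gene Rsad2 from 309, 208 and 377 CPM to 641, 965 and 911 CPM (log2 1.5025 ± 0.28, adjusted p = 0.00763). Rsad2 was the only one of 16 interferon-stimulated genes called in EC4, and in EC2 Gbp3 (log2 -1.57, adjusted p = 0.0363) and Ifi27l2a (log2 -1.74, adjusted p = 0.0107) of that list fell. The change of Rsad2 was above 0 in 3 of the 6 labels that tested it. Over all labels 1 of 25 listed genes was called higher and 2 lower (12%, beside 2.17% of all genes). The globin gene Hba-a2 rose (log2 4.07 ± 0.76, adjusted p = 0.00763), but its levels of 0, 1602 and 247 CPM in aJ1aJ2 1, 3 and 4 enclosed those of the controls. The 6 erythroid markers summed to 971, 1275 and 264 CPM in RW and 142, 8591 and 1347 CPM in aJ1aJ2 of EC4, with 2 of 4 tested called higher, and their part in the Hba-a2 result was not tested. Without aJ1aJ2 3 the calls of Spred2, Sh3bp5, Ccn2, Hba-a2 and Rsad2 were lost (adjusted p 0.096 to 0.343), that of Ccn2 also without RW 3 (0.0747) and that of Sh3bp5 without RW 1 (0.123) or aJ1aJ2 4 (0.165). Those of Gbp3 and Ifi27l2a were lost without RW 1 or aJ1aJ2 4 and that of Gbp3 also without RW 2 or aJ1aJ2 3 (0.0543 to 0.39) or with the 6 pools alone (0.061). DESeq2 lost that of Hba-a2 (0.156).

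In the fibroblast label F 2 fibrillar collagen genes fell, Col1a1 and Col3a1. Col1a1 was 6495, 6145 and 3459 CPM in RW 1, 2 and 3 and 1898, 1394 and 2038 CPM in aJ1aJ2 1, 3 and 4, a log2 change of -1.60 ± 0.30 (adjusted p = 0.0181), and the difference from the other labels was -2.41 (adjusted p = 0.0381). Col3a1 was 11760.0, 10636 and 4865 CPM against 3107, 1971 and 2603 (log2 -1.83 ± 0.30, adjusted p = 0.00639). The groups did not overlap, and RW 3 was the lowest control for both. Of 15 collagen genes tested in F, 2 fell and 11 had an unadjusted p under 0.05 with a lower level, and the list median was -0.66 against 0.00 for all genes. Of all 4840 genes tested in F, 0.186% were called lower and 413 had an unadjusted p under 0.05 in either direction. The fibroblast marker sum was 79029 to 86578 CPM in RW and 74535 to 90882 CPM in aJ1aJ2. Col4a1, a collagen of basement membranes, fell by 0.69 ± 0.16 in EC1 (adjusted p = 0.038) and by 0.95 ± 0.19 in EC4 (adjusted p = 0.0118) on the log2 scale, and its change was below 0 in 6 of 7 labels tested. Col15a1 fell in EC2 by 2.59 ± 0.58 (adjusted p = 0.0352). Without RW 1 or aJ1aJ2 3 both Col4a1 calls were lost, as without aJ1aJ2 4, and without RW 2 that of EC1 (0.0637 to 0.292), and the Col15a1 call was lost without RW 1, RW 2 or aJ1aJ2 3 (0.165 to 0.183). The 6 pools alone lost that of Col4a1 in EC1 (0.0878, and 0.0702 with the block). The Col1a1 call was lost without any pool but RW 3 (0.054 to 0.177), and the Col3a1 call without RW 2 (0.0558) or aJ1aJ2 3 (0.0827).

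Angptl4 and Angpt1 fell in F as well. Angptl4, an inhibitor of lipoprotein lipase, was 146, 176 and 109 CPM in RW 1, 2 and 3 and 34.3, 13.8 and 58.4 CPM in aJ1aJ2 1, 3 and 4 (log2 -2.08 ± 0.34, adjusted p = 0.00639). Angpt1, the ligand of the endothelial receptor Tie2, was 73.1, 50.3 and 76.0 CPM against 12.3, 16.5 and 25.0 (log2 -1.79 ± 0.38, adjusted p = 0.0376). Both fell in every aJ1aJ2 pool below every control. Chchd10, a mitochondrial cristae protein, rose from 19.2, 20.1 and 4.75 CPM to 71.1, 79.9 and 75.1 CPM (log2 2.22 ± 0.49, adjusted p = 0.0463), with a difference of 2.07 from the other labels (adjusted p = 0.0465). In Th1 Chchd10 was 1921 to 2409 CPM, and thyrocyte markers in F summed to 592, 430 and 361 CPM in RW and 311, 515 and 741 CPM in aJ1aJ2, with none at 0. Their part in the Chchd10 change was not tested. The calls of Angpt1 and Chchd10 were lost whichever pool was left out, and that of Angptl4 without RW 2 (adjusted p up to 0.269). With RW 1, RW 2, aJ1aJ2 3 and aJ1aJ2 4 only, those of Angpt1 and Chchd10 were lost too (0.155 and 0.119).

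In Th1 57 of 65 calls were made in that label alone, and none differed from the other labels by the test of the difference. Of 21 chaperones and related genes of the endoplasmic reticulum, which fold secreted proteins such as thyroglobulin, 4 fell, 17 had an unadjusted p under 0.05 with a lower level, and the median log2 change was -0.54. Of all 10627 genes tested in Th1, 0.226% were called lower and 1310 had an unadjusted p under 0.05 in either direction. Sdf2l1 was 539.6, 780.3 and 652 CPM in RW 1, 2 and 3 and 391, 264 and 333 CPM in aJ1aJ2 1, 3 and 4 (log2 -0.998 ± 0.15, adjusted p = 0.00933). Hsp90b1 (log2 -0.65, adjusted p = 0.0246), Pdia4 (log2 -0.75, adjusted p = 0.0258) and Derl3 (log2 -1.13, adjusted p = 0.0234) were the others. For these 4 genes every aJ1aJ2 pool was below every control. In Th3 C cell markers summed to 40130, 87323 and 61349 CPM in RW 1, 2 and 3 and 22931, 3089 and 17046 CPM in aJ1aJ2 1, 3 and 4, with Gast at 0 and 0 of 2 tested called, and the chaperone list median was -0.49 with 0 of 18 called by edgeR. The part of the C cell markers in that median was not tested. In the other labels the median lay between -0.28 and 0.05. In EC1, at -0.26, 8 of 20 genes had a lower level at an unadjusted p under 0.05, beside 1181 of all 9369 genes tested there in either direction. Without aJ1aJ2 3 all 4 calls were lost (0.0722 to 0.171), and without RW 2 or aJ1aJ2 4 those other than Sdf2l1 (0.113 to 0.134). DESeq2 lost that of Derl3 (0.0822) and the 6 pools alone those of Hsp90b1 and Pdia4 (to 0.0761).

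Other thyrocyte changes touched single genes. Tshr, the receptor for thyroid-stimulating hormone, was 107, 98.5 and 87.4 CPM in RW 1, 2 and 3 and 69.9, 47.0 and 37.9 CPM in aJ1aJ2 1, 3 and 4 (log2 -0.93 ± 0.17, adjusted p = 0.0235). It was the 1 gene of 15 thyroid function genes called (6.67%, beside 2.17% of all genes called in any label). Mt1, a metallothionein, fell from 8831 to 11694 CPM in RW to 6284 to 6858 CPM in aJ1aJ2 (log2 -0.67 ± 0.12, adjusted p = 0.0174). Klf15, a transcription factor induced by glucocorticoids, rose from 4.88, 5.40 and 5.85 CPM to 10.8, 24.7 and 18.1 CPM (log2 1.80 ± 0.27, adjusted p = 0.00933). The pools of each group kept apart for these 3. Dapl1 fell by 2.79 ± 0.44 (adjusted p = 0.0105) and Tekt1, a protein of cilia, by 2.09 ± 0.44 on the log2 scale (adjusted p = 0.0452), and Creb5, a transcription factor, rose by 1.82 ± 0.38 (adjusted p = 0.0429). RW 3 and aJ1aJ2 1 were nearly level for Tekt1, at 50.1 and 48.4 CPM. All of these calls except that of Creb5, which then had no value, were lost without aJ1aJ2 3 (0.114 to 0.279), those of Tshr, Mt1, Tekt1 and Creb5 without RW 1, RW 2 or aJ1aJ2 4 (0.0728 to 0.177) and that of Creb5 without RW 3 (0.0871). The 6 pools alone lost those of Tshr, Tekt1 and Creb5 (to 0.139), and DESeq2 that of Tekt1 (0.257), as did the block (0.0552).

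**Figure D4:**
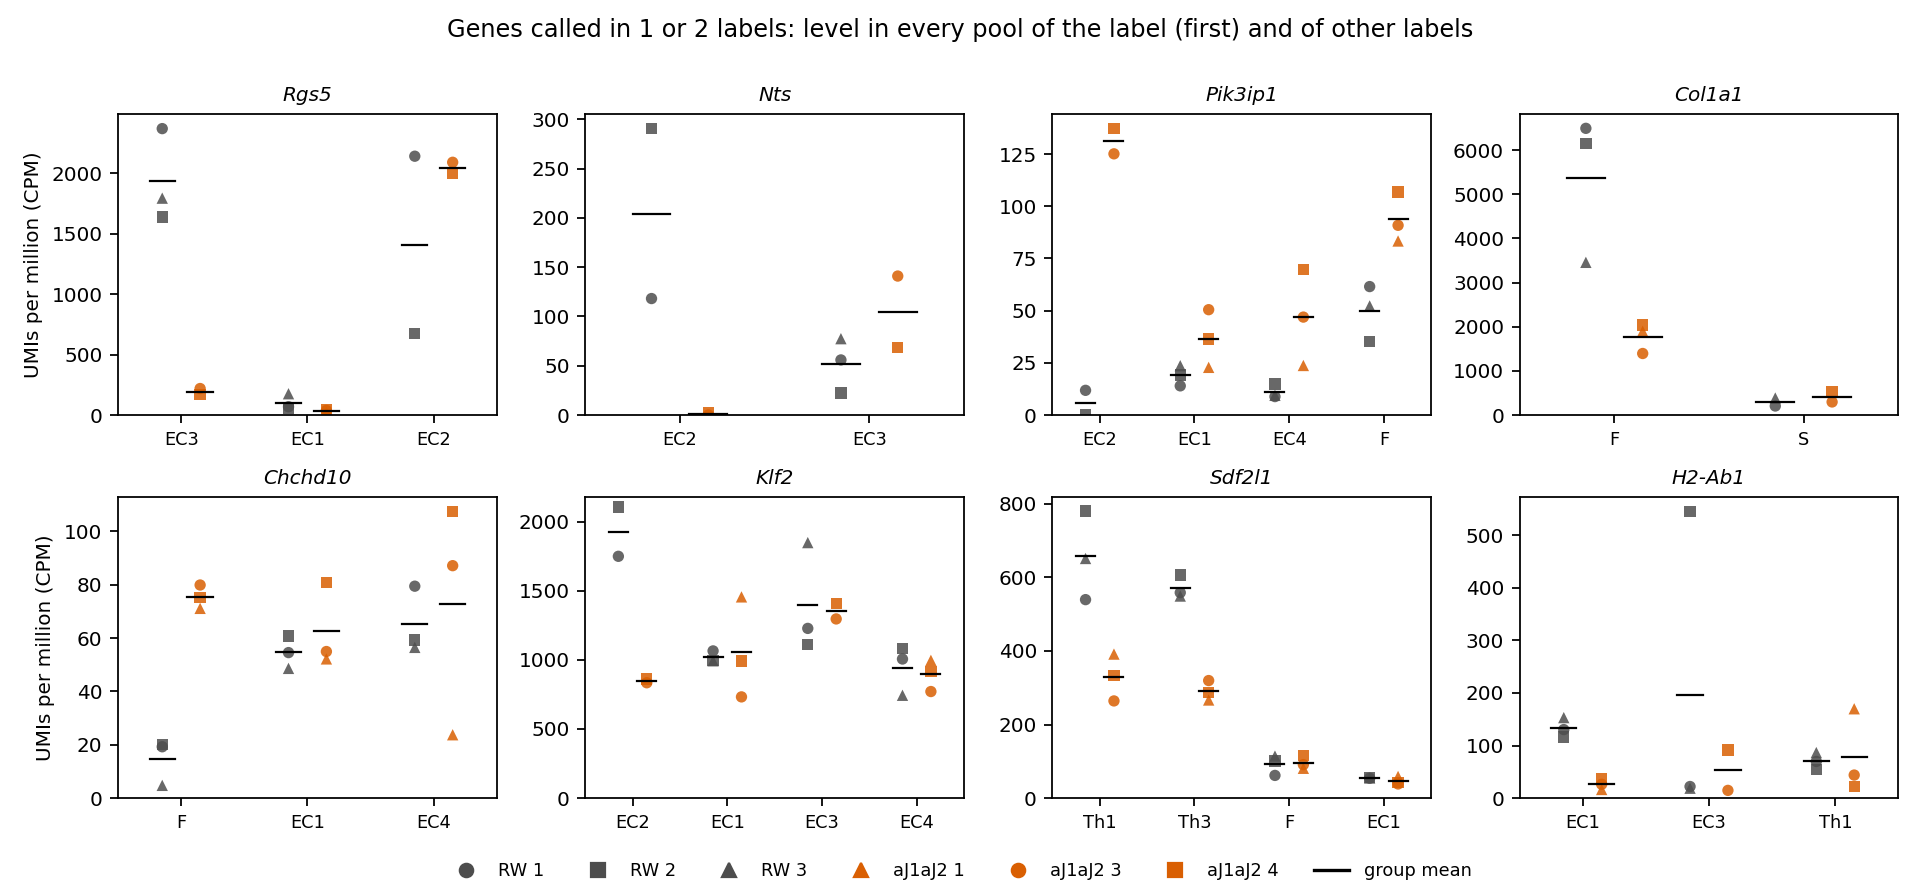
Level in CPM (y axis, linear from 0) of 8 genes called in 1 or 2 labels, in the label of the call (first on the x axis) and in other labels. Points are pools, grey for RW and orange for aJ1aJ2, triangles mark RW 3 and aJ1aJ2 1, and horizontal lines are group means. Rgs5 in EC3 falls from 1637 to 2367 CPM in RW to 168 and 219 CPM in aJ1aJ2 while the EC2 pools overlap.

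In Eryth2 Tax1bp1, an adaptor in selective autophagy, was 28.5, 24.7 and 36.7 CPM in RW 1, 2 and 3 and 7.62, 7.60 and 12.6 CPM in aJ1aJ2 1, 3 and 4 (log2 -1.57 ± 0.30, adjusted p = 0.0405). The difference from the other labels was -1.56 (adjusted p = 0.00174). In Th1 Tax1bp1 was 314 to 403 CPM over both groups with a change of 0.16. The call rests on 91 UMIs in RW and 28 in aJ1aJ2 in pools whose cells had a median of 80 to 134 genes, and it was lost without any single pool except aJ1aJ2 4 (adjusted p 0.0575 to 0.604) and by DESeq2, with no filter on low counts, without both RW 3 and aJ1aJ2 1, with the 6 pools alone and with the block of title number range (0.0622 to 0.153).

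**Figure D5:**
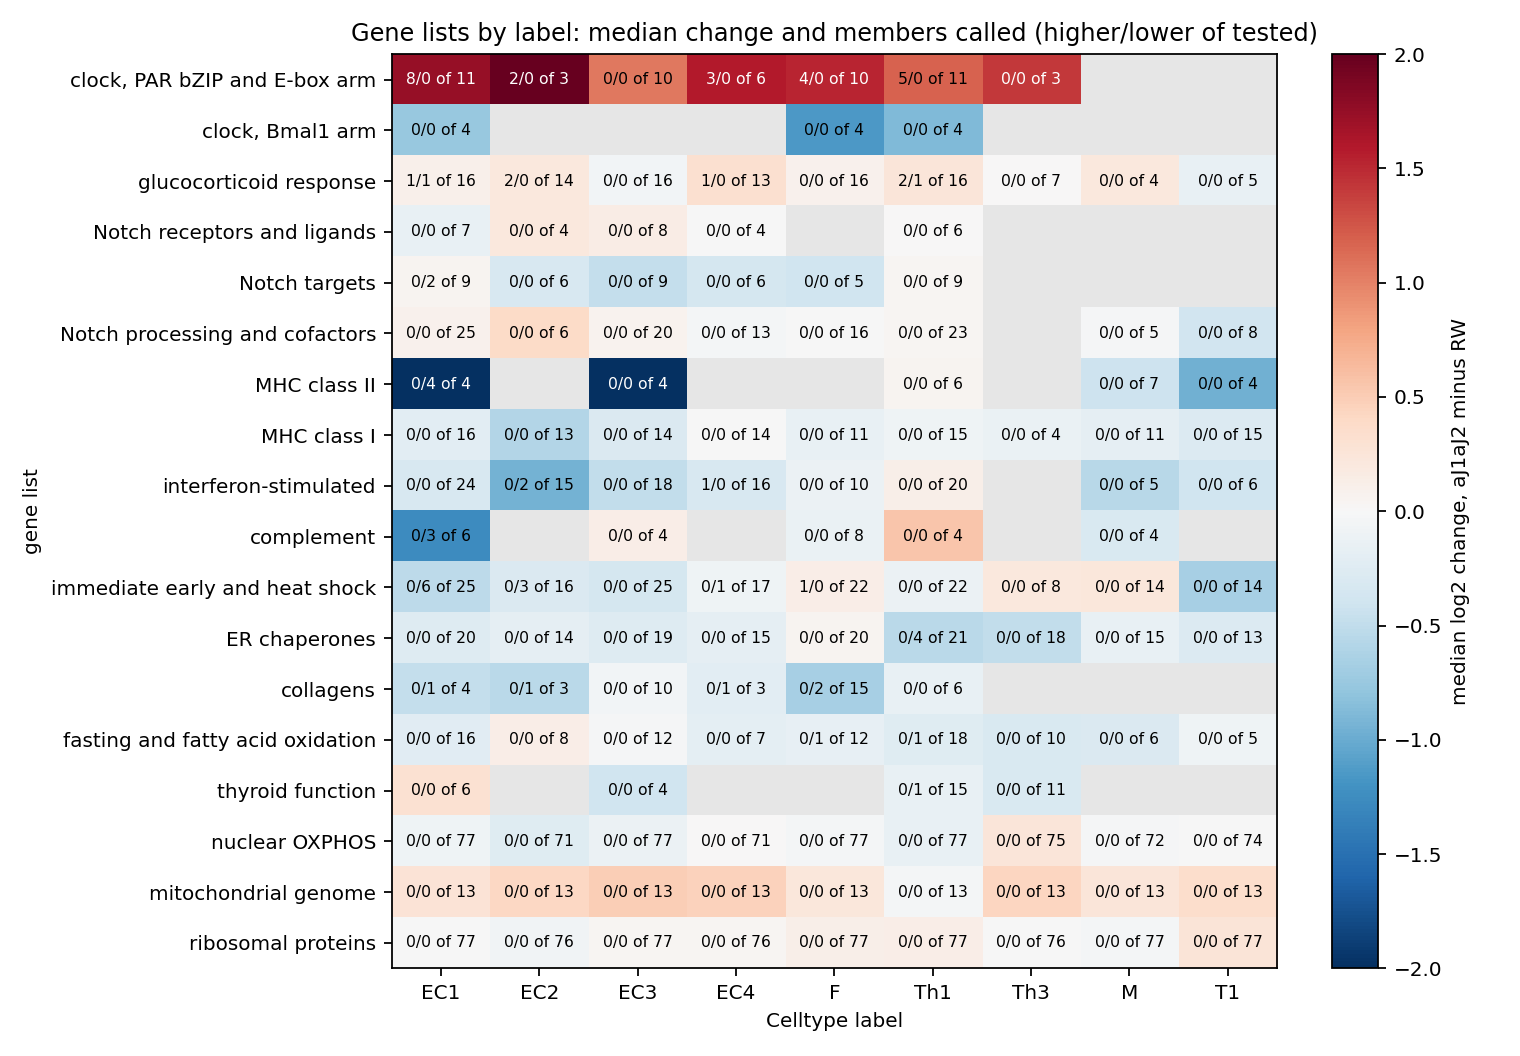
Median log2 change of each gene list (rows, colour) in 9 labels (columns), with the members called higher and lower of those tested. Colour is limited to -2 to 2, and grey marks fewer than 3 members tested. The clock list has calls in EC1, EC2, EC4, F and Th1. Among labels with at least 3 members tested, the MHC class II medians are lowest in EC1 and EC3, where 4 of 4 and 0 of 4 members were called.

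None of 77 nuclear oxidative phosphorylation genes, 13 listed genes of the mitochondrial genome, 77 ribosomal protein genes, 16 MHC class I genes, 12 arterial genes, 9 venous genes or 11 proliferation genes tested was called by the edgeR test within any label, beside 2.17% of all genes tested. In S, however, 0 of 72 nuclear oxidative phosphorylation genes had a positive change and the median was -0.88, beside -0.02 over all genes tested there. By the test of the difference from the other labels, many oxidative phosphorylation genes were lower in S. Among them were Ndufa11 (adjusted p = 0.00145), Cox5a (0.0032), Cox6b1 (0.00329), Ndufb6 (0.00688), Cox5b (0.00911), Cox6c (0.0102), Ndufa4 (0.0116) and Cox4i1 (0.0217), and others are not named here. The proliferation gene Tubb5 (0.00355) was lower in S as well. The part of the uneven Schwann cell markers of S in these values was not tested. By the same test H2-K1, an MHC class I gene, and Rpl14, a ribosomal protein gene, were higher in Eryth1 (both 0.0101). The listed genes of the mitochondrial genome had a positive change in 12 of 13 cases in EC1 (median 0.28) and in 13 of 13 in EC4 (median 0.45), but in 5 of 13 in Th1 (median -0.04). In EC1 6 and in EC4 7 of them had an unadjusted p under 0.05, beside 1181 of all 9369 and 315 of all 3101 genes tested there. Outside the list, mt-Rnr1, a further transcript of that genome named after its values were seen, was called higher in EC1 (log2 0.497). Its change was above 0 in 12 of 12 labels. The medians in EC1 were 0.20 for 10 arterial and 0.04 for 5 venous genes, and those in EC3 0.00 for 11 and 0.37 for 9. A change below the size that pools of this number can show would not be seen.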

How the data were processed

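Single-cell RNA was captured by 10x 3' v2 droplets from pooled, digested thyroids. The deposited table holds raw UMI counts for 52636 gene identifiers in 10186 cells, and every value was whole. The authors used Cell Ranger and the build GRCm38, per the submitters' processing notes. The annotation release, the clustering and the treatment of doublets are not given in the sources used here, and no further filter on cells or doublets was applied. The lowest UMI count of a cell in the table was 500. The cell labels come from the authors' deposited annotation, in which 2619 lines had a shifted column that was read accordingly. Symbols were matched for 52403 identifiers, and the other 233 held 0.0293% of UMIs.

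Counts were summed per pool and label, for pools with at least 20 cells of it. Each label was fitted in R 4.3.3 with edgeR 4.0.16 (TMM scaling, filterByExpr, quasi-likelihood test, Benjamini-Hochberg adjustment over all genes tested). The aN1aN2 pools (anti-Notch1 and anti-Notch2, 5 and 10 mg/kg) entered these fits too, in the filter, the TMM scaling and the estimate of the spread. With the 6 pools alone, Abca8a, Ckm and Per2 in EC1 and Ccn2, Hba-a2, Ddit4 and Tef in EC4 had no value. The difference of a label from the others was tested in edgeR with pool and label as terms, and the mean over labels with limma 3.58.1 on log2 CPM (prior count 2). DESeq2 1.42.0 was an alternative. Levels are linear CPM on TMM-adjusted library totals, so they need not sum to a fixed total, errors are SE of the log2 change, and counting intervals are exact at 95% and cover counting error only. The p-values within a label and for the mean over labels measure the spread between pools. Those of the test of the difference measure the spread of the sums of pool and label that remains after both terms, taken over all labels together.

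Named genes were those called in at least 3 labels, up to 4 a direction per label among those that also differed from the other labels (or up to 2 called in that label only), called members of 24 pathway lists, and Jag1, Jag2, Notch1 and Notch2. The members, the pathway lists and 17 marker lists were chosen with earlier results of these data known. The steps were tested on simulated data with the same spread for all genes of a label and no difference in level between pools of a group. The real data need not meet these settings, so the shares below need not hold for them. In EC1 (9295 genes) 69.7% of genes with a simulated log2 change of 1 and 100.0% of those with 2 were recovered, in EC4 (3087 genes) 42.3% and 91.6%, and in Th1 (10524 genes) 87.6% and 100.0%. In EC2 (2329 genes) the shares were 47.1% and 96.6%, and in F (4695 genes) 60.9% and 97.8%. In each of these labels 5 to 14 unchanged genes were called.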

Additional observations from a re-analysis of the deposited data

Results flagged for a closer look

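For 9 genes the change in 1 label differed from the common change of the other labels by the edgeR test of that difference, and the gene was also called in the label itself. In EC2 the difference on the log2 scale was -8.03 for Nts, 3.24 for Pik3ip1, 2.81 for Aspn and -1.30 for Jund. In EC3 it was -4.17 for Mnd1 and -2.82 for Rgs5. In F it was 2.07 for Chchd10 and -2.41 for Col1a1, and in Eryth2 it was -1.56 for Tax1bp1. With 1 pool left out, between 1 and 6 of these 9 were kept, and only Nts was kept each time. Without the erythroid labels those of Jund, Chchd10 and Col1a1 were lost, and that of Tax1bp1, in Eryth2, could not be tested.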

How the results depend on the processing

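Of the calls of named genes, none changed direction under any alternative, but many were lost: 59 of 92 without aJ1aJ2 3, 47 of 92 each without aJ1aJ2 4 and RW 1, 44 of 93 without RW 2, 11 without RW 3, 5 without aJ1aJ2 1, 29 of 86 with the 6 pools only, 9 of 69 with the block, 15 of 59 by DESeq2, 4 of 93 without both RW 3 and aJ1aJ2 1, 2 with no filter and 1 with DESeq2 size factors. With 1 pool left out, the number of genes called ranged from 38 to 386 in EC1, 13 to 55 in EC2, 0 to 11 in EC3, 2 to 65 in EC4, 4 to 44 in F, 1 to 530 in Th1, 0 to 1118 in S, and 0 to 1 in Eryth1, Eryth2 and T1. Genes called in at least 3 labels ranged from 0 to 27, pairs of gene and label from 4 to 708 (703 of these in S), and genes called for the mean over labels from 0 to 25. The highest value in S was without RW 3. Where this left 1 pool in a group (EC2, EC3, S and T1), that pool is assumed to vary like the others. With no filter on low counts, 356 genes were called in EC1, 150 in EC2, 104 in EC3, 105 in F, 424 in Th1, 2 in Eryth2, 36 in M, 201 in S, 17 in T1 and 163 in Th3, 56 were shared and 414 pairs differed. In the 4 pools without RW 3 and aJ1aJ2 1, 589 were called in EC1, 8 in EC3, 66 in EC4, 47 in F, 508 in Th1, 0 in Eryth2 and 1118 in S, 56 were shared, 730 pairs differed and 63 were called for the mean. DESeq2 called 21 in EC2, 11 in EC4, 103 in Th1, 0 in Eryth2, 2 in S and 1 in Th3, with 4 shared. It gave no adjusted p for 34 named calls. With the 6 pools only, 77 were called in EC1, 15 in EC4, 26 in Th1 and 0 in Eryth2, with 3 shared. With the title number range as a block, 10 were called in EC3, 54 in F, 135 in Th1, 0 in Eryth2, 841 in S and 13 for the mean, 10 were shared, and EC2 could not be fitted. At 50 cells per pool 3 were shared. Without the erythroid labels, of which Eryth2 held 1 pair, 5 pairs differed, and with genes passing the filter in 1 label 8 were called for the mean. The cause of these changes was not tested. No paired analysis was possible because the titles number RW pools 1 and 2 and aJ1aJ2 pools 3 and 4, with no number in common. RW 3 and aJ1aJ2 1 carry no replicate number in their titles and were numbered here.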

Other observations

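Several listed genes outside the groups above passed the edgeR test in 1 or 2 labels. Neat1, a long nuclear RNA, was 469, 456 and 333 CPM in RW 1, 2 and 3 and 575, 733 and 690.3 CPM in aJ1aJ2 1, 3 and 4 of Th1 (log2 0.67 ± 0.14, adjusted p = 0.0452). Its change was positive in 11 of the 11 labels where it was tested, with an unadjusted p under 0.05 in 9, and it was called in at least 3 labels without aJ1aJ2 1, without both RW 3 and aJ1aJ2 1, with the title number range as a block and with no filter on low counts. Rn7sk, a small RNA that holds back transcription elongation, fell in EC1 (log2 -1.09 ± 0.25, adjusted p = 0.0351) with overlapping groups and in EC2 (log2 -1.45 ± 0.35, adjusted p = 0.0438). Of the list of fasting and fatty acid oxidation genes, 2 of 18 fell (11.1%, beside 2.17% of all genes called in any label): Angptl4 in F and, in Th1, Acot2, a mitochondrial thioesterase, from 70.1, 81.0 and 74.7 CPM to 50.5, 39.3 and 47.9 CPM (log2 -0.72 ± 0.13, adjusted p = 0.0174). Sult1a1, a sulfotransferase gene on the glucocorticoid list, rose in Th1 (log2 1.15 ± 0.24, adjusted p = 0.0426), and Ddit4, an inhibitor of mTOR signalling on the same list, rose in EC4 (log2 2.37 ± 0.57, adjusted p = 0.0441). The calls of Neat1, Acot2 and Sult1a1 were lost without RW 2, aJ1aJ2 3 or aJ1aJ2 4, those of Neat1 and Sult1a1 also without RW 1 and that of Neat1 without RW 3 (adjusted p 0.0615 to 0.322). Both Rn7sk calls were lost without RW 1 or aJ1aJ2 4 and the EC1 call without RW 2 or aJ1aJ2 3 (0.106 to 0.638), and the Ddit4 call was lost without RW 1, RW 3, aJ1aJ2 3 or aJ1aJ2 4 (0.096 to 0.323). With the 6 pools alone the calls of Neat1, Acot2, Sult1a1 and Rn7sk were lost too (0.0574 to 0.129). DESeq2 lost those of Ddit4 and of Rn7sk in EC1 (0.113 and 0.146). The Ddit4 call was also lost with no filter on low counts (0.0604) and without both RW 3 and aJ1aJ2 1 (0.0881).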
